A study of Mus musculus with 9 samples.

Results

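Unirradiated muscle constructs that had shared a dish with a senescent one were compared with normal constructs, gene by gene. The comparison takes 6 of the 9 libraries of the series, 3 cocultured and 3 normal, chosen by their labels alone. All constructs were made of C2C12 cells, a mouse myoblast line labelled WT, embedded in extracellular matrix from muscle tissue. They spent 2 days in growth medium, then 10 days in differentiation medium with 10% equine serum. A normal construct was not irradiated and had a partner of its own condition in the dish. A cocultured construct was not irradiated either, and its dish partner had received a single 20 Gy X-ray dose to make it senescent. The third group holds such irradiated constructs, and its libraries are used here only as a reference for a few levels. All groups share the cell line, the matrix and the media, so the groups model one immortalised line rather than muscle with its vessels, nerves and immune cells. The labels call the replicates biological, without saying whether 2 constructs of a group came from 1 dish, so each p-value rests on the spread between these libraries, which may be partly technical.

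Senescent cells have left the cell cycle for good, and many secrete a mixture of cytokines, chemokines, growth factors and proteases known as the senescence-associated secretory phenotype, or SASP. Such factors can act on neighbouring cells, where they are known to engage NF-kB, TGF-beta and activin signalling and to provoke growth arrest or matrix remodelling. Differentiating myoblasts also leave the cell cycle, fuse under Myod1 and Myog, and build sarcomeres, the contractile units of muscle. According to the series description, the coculture was set up to model these paracrine effects.

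Libraries held 4840993 to 6607557 counts in normal and 7506605 to 8035763 in cocultured constructs, with 11329 to 14159 and 10002 to 11851 genes detected. Levels are given as normalised CPM, counts scaled to library sizes that were corrected by TMM, and in lists of values the libraries stand in the order of replicates 1, 2 and 3. Normal 3 stood apart from normal 1 and normal 2. Its adult sarcomere genes took 18.0% of all counts and its mitochondrially encoded genes 29.7%, against 1.22% to 3.33% and 5.77% to 12.5% in the other 5 libraries. The predicted noncoding gene Gm26917 took 23.9%, 27.4% and 9.47% of the counts of the normal libraries and 3.91%, 3.53% and 3.38% of the cocultured ones. Its share was lower in all 3 cocultured libraries (exact permutation test, two-sided p = 0.1, the smallest that 3 against 3 allows). The share in irradiated 1 was 12%, inside the normal range, and those in irradiated 2 and irradiated 3 were 4.76% and 5.28%. No label records a preparation batch, so a difference in preparation between the normal and the cocultured libraries cannot be told apart from coculture.

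**Figure D1:**
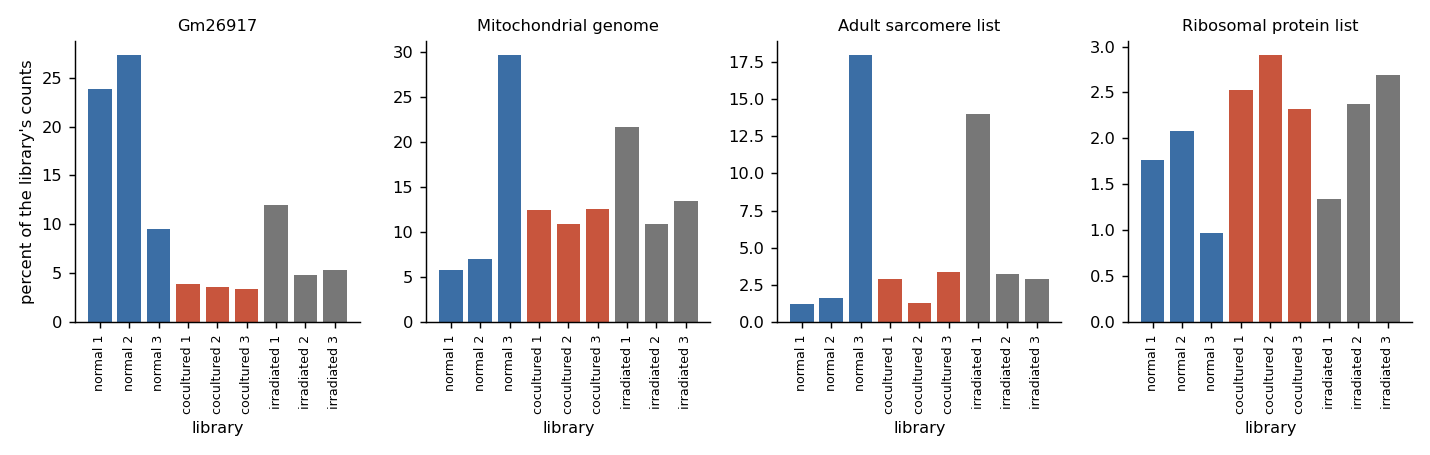
Percent of each library's counts (y axis) taken by Gm26917, by genes of the mitochondrial genome, by the adult sarcomere list and by the ribosomal protein list, in normal (blue), cocultured (red) and irradiated (grey) libraries. Normal 3 and irradiated 1 stand above the other libraries for mitochondrial and sarcomere genes, and the normal libraries stand above the cocultured ones for Gm26917.

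The constructs carried muscle transcripts in both groups. Myog, a transcription factor of myoblast differentiation, measured 185, 369 and 194 CPM in normal and 362, 280 and 162 CPM in cocultured constructs. Embryonic myosin heavy chain Myh3 measured 143, 269 and 96.3 against 271, 256 and 81.3 CPM, and the intermediate filament gene Des 579, 842 and 1511 against 666, 504 and 501 CPM. The groups overlapped for each of these markers. Some markers of other cell types were at 0 and others were detected. On the scale of all 9 libraries, Cd14 was highest in normal 1 (448 CPM) among the 6 compared. Nefl was highest in normal 2 (121 CPM) and Sox9 in cocultured 1 (256 CPM). The summed level of the 16 macrophage and leukocyte markers was 105 to 449 CPM in normal and 31.1 to 165 CPM in cocultured constructs, with 14 detected and Aif1 and Cd3e at 0. For 13 endothelial and mural markers it was 36.3 to 221 and 17.5 to 60.8 CPM, with Pecam1, Tie1 and Emcn at 0. The 12 adipocyte markers summed to 41.7 to 209 and 34.8 to 62.3 CPM, with Plin1 and Retn at 0, and the 16 neural and Schwann cell markers to 164 to 416 and 242 to 301 CPM, with Snap25 and Gfap at 0. Of 10 epithelial markers 5 were detected, and their sum did not exceed 24.2 CPM in normal and 15.1 CPM in cocultured constructs. Tendon, cartilage and bone markers, 6 of 13 detected, summed to 202 to 343 CPM in normal and 295 to 377 CPM in cocultured constructs. The ranges of the groups overlapped for each of these 6 lists. In a bulk sample fewer cells of a type and less RNA per cell cannot be told apart.

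No gene differed between cocultured and normal constructs past the test. Of 11246 genes tested with edgeR's quasi-likelihood test, 0 were called at a Benjamini-Hochberg adjusted p under 0.05 (0% called), and the lowest adjusted p was 0.737. An unadjusted p under 0.05 was reached by 584 genes (5.19%), where 562.3 would be expected by chance. These were 190 with higher values in cocultured constructs (1.69%) and 394 with lower values (3.5%). Scaled by library totals alone, the split was 674 higher and 202 lower, since that scaling moves the median log2 fold change of all tested genes from -0.04 to 0.50. The spread was wide, with a square root of the common dispersion of 1.02.

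Under the other fits planned, 3 gave calls. DESeq2 called 268 of 11057 genes (2.42%), 52 higher and 216 lower in cocultured constructs, of which 140 had no count in a whole group. limma voom called 1 gene, Gm26917, and edgeR without a filter on low counts called 99, of which 79 had their highest value in normal 3. Genes are described below by their values, since none passed in edgeR's main test.

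**Figure D2:**
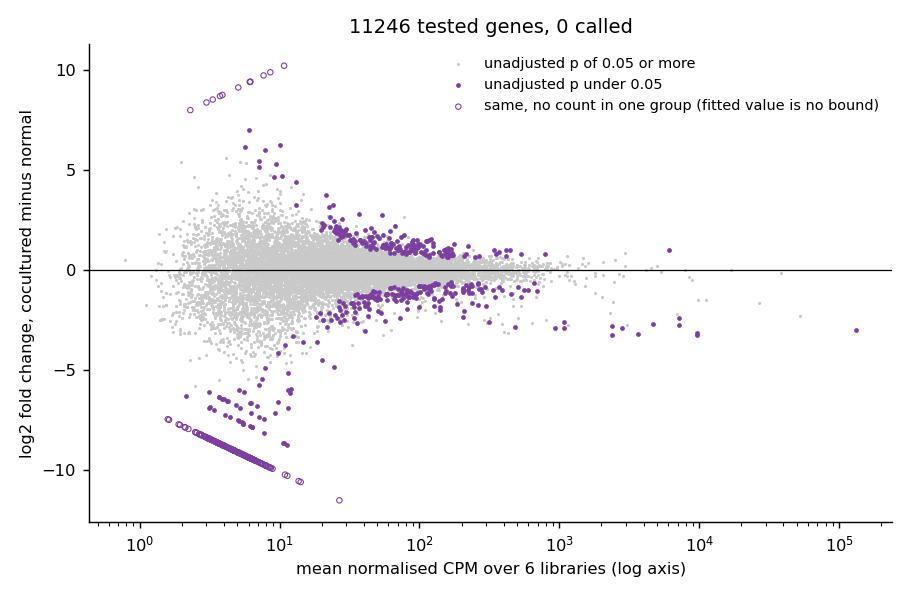
Log2 fold change of each tested gene, cocultured minus normal (y axis), against its mean normalised CPM over the 6 libraries (x axis, log scale), with genes of unadjusted p under 0.05 in purple and open circles for those with no count in one group. The purple points hold 190 genes above and 394 below 0, and no gene passed the adjusted threshold.

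The genes of smallest p among those with higher values in cocultured constructs included genes of mitochondrial energy metabolism. Cs, the citrate synthase that opens the tricarboxylic acid cycle, measured 26.1, 37.3 and 42.8 CPM in normal and 134, 106 and 117 CPM in cocultured constructs. Every cocultured library lay above every normal one, with a log2 fold change of 1.75 ± 0.36 (SE; edgeR adjusted p = 0.737). Atp5md, a small subunit of the ATP synthase, measured 74.8, 51.9 and 56.7 CPM against 167, 188 and 139 CPM (log2 1.43 ± 0.31), again without overlap. Groups did not overlap in 671 tested genes in this direction (5.97%) and in 864 in the other (7.68%), and the naming rule admitted only genes without overlap.

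Commd10, a member of the COMMD family of endosomal sorting proteins, measured 4.01, 4.21 and 5.62 CPM in normal and 35.7, 46.9 and 48.0 CPM in cocultured constructs (log2 3.24 ± 0.72). Dync1i1, an intermediate chain of cytoplasmic dynein, had no count in the normal libraries and 27.4, 17.6 and 19.6 CPM in the cocultured ones. With 3 counts over the normal group as the floor it was at least 95.0-fold higher, a bound for counting error only. It had no count in any irradiated library either, so its reads were found in cocultured constructs alone. The splicing factor gene Srsf3 averaged 49.4 ± 19.2 CPM in normal and 141 ± 38.2 CPM in cocultured constructs (SD, n = 3 each), and the peptidase Tpp2 24.8 ± 8.62 and 84.3 ± 12.2 CPM.

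Hsd11b1, the enzyme that regenerates active glucocorticoid, measured 47.5, 97.6 and 35 CPM in normal and 177, 176 and 165 CPM in cocultured constructs (log2 1.52 ± 0.40). The cocultured libraries lay close together and above the normal ones, among which normal 2 was highest. Gypc, a glycophorin of the cell membrane, averaged 23.8 ± 19.5 and 109 ± 26.1 CPM, with a log2 fold change of 2.19 ± 0.58 that was 3.12 without normal 2. Ston1, an endocytic adaptor gene, averaged 20.1 ± 6.38 and 74.8 ± 31.1 CPM. The edgeR adjusted p was 0.737 for each of these 9 genes.

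**Figure D3:**
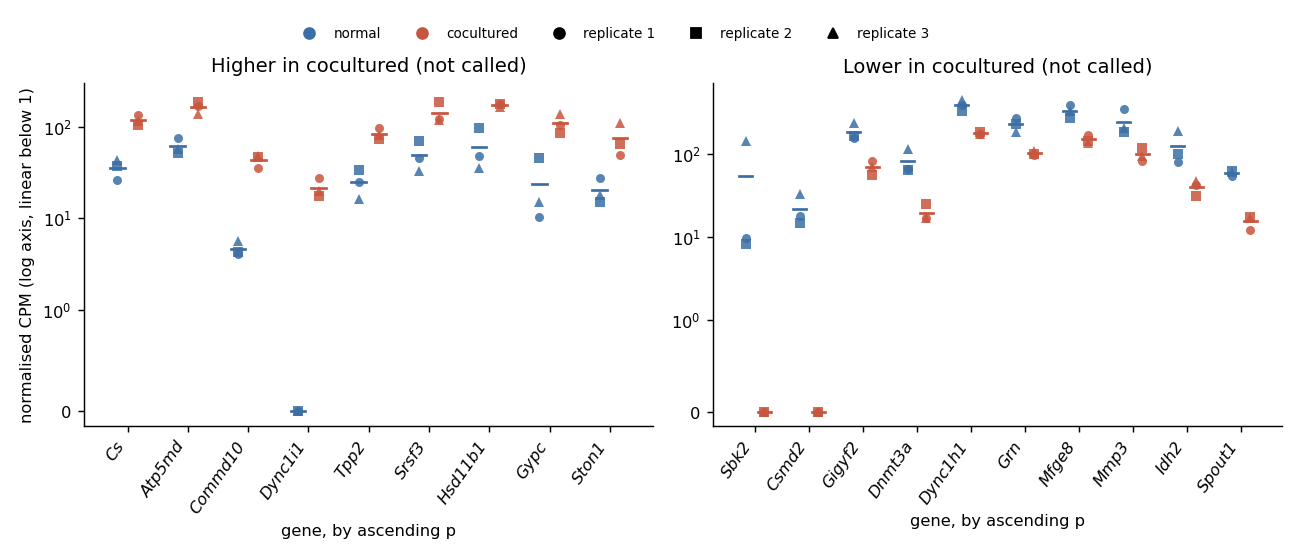
Normalised CPM (y axis, log scale above 1) of 9 of the 10 genes of smallest p with higher values in cocultured libraries (left) and the 10 with lower values (right), 1 point a library and a bar at each group mean. The rule that chose these genes required groups without overlap, and none of them was called.

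Among genes with lower values in cocultured constructs, the secreted proteins Grn, Mfge8 and Mmp3 stood beside motor, methylation and mitochondrial genes. Grn, the gene of the lysosomal growth regulator progranulin, measured 272, 227 and 185 CPM in normal and 95.9, 99.0 and 109 CPM in cocultured constructs (log2 -1.17 ± 0.28). Mfge8, a bridging protein in the uptake of dying cells, measured 391, 271 and 326 against 170.3, 142 and 135 CPM (log2 -1.14 ± 0.28). The matrix metalloprotease Mmp3, a member of the SASP, measured 345, 181 and 206 against 82.9, 116 and 95.2 CPM (log2 -1.31 ± 0.33). For all 3 the lowest normal library lay above the highest cocultured one.

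Dync1h1, the heavy chain of cytoplasmic dynein, measured 382, 326 and 443 CPM in normal and 174, 185 and 172 CPM in cocultured constructs. The log2 fold change was -1.12 ± 0.27, and on the scale of all 9 libraries irradiated 1 (386 CPM) lay within the normal range while irradiated 2 (155 CPM) and irradiated 3 (159 CPM) lay below it. Dnmt3a, a DNA methyltransferase that sets new methylation marks, measured 65.0, 63.4 and 116 against 16.8, 24.7 and 17.0 CPM (log2 -2.06 ± 0.47). Gigyf2, a translational repressor, averaged 184 ± 42.9 and 69.3 ± 13.5 CPM (SD, n = 3 each), and Spout1, a methyltransferase-like gene, 58.7 ± 4.50 and 15.4 ± 2.95 CPM. Idh2, the mitochondrial isocitrate dehydrogenase, measured 79.2, 99.1 and 190.4 against 42.5, 30.8 and 47.0 CPM, with normal 3 the highest.

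Sbk2, a kinase gene, and Csmd2, a large gene with complement-control domains, had no count in any cocultured library. Csmd2 measured 18.0, 14.6 and 32.9 CPM in normal constructs, and taking 3 counts over the cocultured group as the floor it was at least 201-fold lower. Sbk2 measured 9.83, 8.21 and 143 CPM and was at least 445-fold lower by the same floor, with most of its counts in normal 3, and at least 86.2-fold lower without that library. On the scale of all 9 libraries irradiated 1 held 103 CPM of Sbk2, and irradiated 2 and irradiated 3 held none. DESeq2 called each of these 19 genes but Sbk2, for which it gave no adjusted p. Among genes named further below, DESeq2 also called Meg3, Csf1r, Birc3, Slit3, Thbs1, Igfbp7, Pgf, Rbpj, Rpl12, Gstm1 and Psmc1.

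Transcripts found in one group alone were mostly normal ones. A count in every normal and no cocultured library was seen in 243 genes, and the reverse in 28. RefSeq held 214 of the 243, of which 49.5% were protein coding and 47.7% long noncoding, while 95.0% and 4.26% of the tested genes found there were. Of the 28 genes, 85.2% of those found were protein coding and 7.41% long noncoding. Both sets were taken before the filter on low counts, and 155 of the 243 and 12 of the 28 were tested. The tested genes had passed that filter, so their shares are not a like baseline. Irradiated 1 had counts in 90 of the 243, irradiated 2 in 20 and irradiated 3 in 19. Of the 28 they had counts in 8, 4 and 7. Irradiated 1 also had the most genes detected in all, 11126 against 8306 and 8654. The long noncoding gene Meg3 gave a like picture, at 13.8, 13.8 and 16.6 CPM in normal and 0.419, 0.101 and 0.441 CPM in cocultured constructs (log2 -5.45 ± 1.85, edgeR adjusted p = 0.737). Csf1r, the receptor that marks macrophages, measured 7.42, 3.99 and 36.4 CPM in normal and 0 in all cocultured constructs, while Cd14 overlapped between groups. Whether the composition of the libraries has a part in these absences was not tested.

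Arrest genes of senescence and targets of p53 did not differ past the test. Cdkn1a, which encodes the arrest protein p21, measured 946, 1332 and 640 CPM in normal and 1198, 1176 and 1278 CPM in cocultured constructs (log2 0.32 ± 0.34, and 0.09 without normal 3). The groups overlapped, normal 2 being the highest of the 6 libraries. Cdkn2a, the locus of p16, and its neighbour Cdkn2b had no count in any library. Trp53 itself averaged 28.2 ± 13.2 and 26.3 ± 8.49 CPM (SD, n = 3 each), and Mdm2, the ubiquitin ligase of p53, measured 38.9, 86.7 and 64.7 against 73.7, 91.9 and 207 CPM (log2 0.97 ± 0.47, and 0.39 without cocultured 3).

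Of 35 tested p53 targets 24 were positive, and their median log2 fold change was 0.36 beside -0.04 over all tested genes and 0.30 without normal 3. In 5 of them, Ccng2, Ckap2, Dcxr, Gdf15 and Rps27l, every cocultured library lay above every normal one (14.3%), and in 1, Xpc, below (2.86%), beside 5.97% and 7.68% of all tested genes. Rps27l, a p53-induced ribosomal protein paralogue, measured 67.6, 79.9 and 75.7 CPM against 147, 173 and 99.5 CPM (log2 0.91 ± 0.32). The atypical cyclin gene Ccng2 measured 21.7, 26.4 and 8.02 against 42.6, 49.7 and 54.6 CPM (log2 1.39 ± 0.61). Xpc, which recognises damaged DNA, measured 37.5, 16.2 and 37.4 against 12.9, 4.84 and 2.64 CPM. Of 22 tested cell-cycle inhibitors and senescence markers 2 lay apart, both lower in cocultured constructs (9.09%, beside 7.68% of all tested genes). They were Map2k6, a kinase upstream of p38 (51.0 ± 13.3 and 16.4 ± 6.64 CPM), and the lysosomal fucosidase Fuca1 (66.3 ± 30.5 and 32.6 ± 7.80 CPM).

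Most genes of mitosis overlapped between groups, and several genes of DNA replication did not. The proliferation marker Mki67 measured 20.7, 49.5 and 16.6 CPM in normal and 87.1, 27.9 and 39.1 CPM in cocultured constructs (log2 0.83 ± 0.64, 0.22 without cocultured 1, 0.54 without normal 3 and 1.47 without normal 2), and Top2a, the topoisomerase of dividing cells, 79.8, 214 and 108 against 151, 157 and 53.4 CPM. The chromatin protein gene Hmgb1 averaged 92.3 ± 42 and 57.8 ± 16.2 CPM. The nuclear lamin Lmnb1, known to be lost in senescence, averaged 26.6 ± 26.1 and 43.5 ± 13.2 CPM, with its highest values in cocultured 1 and normal 2. Over 41 tested genes of cell cycle and mitosis the median log2 fold change was 0.36 (28 positive) and 0.12 without normal 3. In each direction 1 member lay apart, Aspm higher and Kif4 lower (2.44% each, beside 5.97% and 7.68% of all tested genes). Of 42 DNA replication genes 8 lay apart higher (19%) and 1, Pold1, lower (2.38%), beside 5.97% and 7.68% of all tested genes, while the median was 0.06. Mcm3, a subunit of the replicative helicase, measured 13.8, 12.4 and 3.74 CPM in normal and 41.6, 28.9 and 46.2 CPM in cocultured constructs (log2 1.95 ± 0.77). Orc6, of the origin recognition complex, averaged 11 ± 7.69 and 36.2 ± 25.8 CPM, with 66.0 CPM in cocultured 3.

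**Figure D4:**
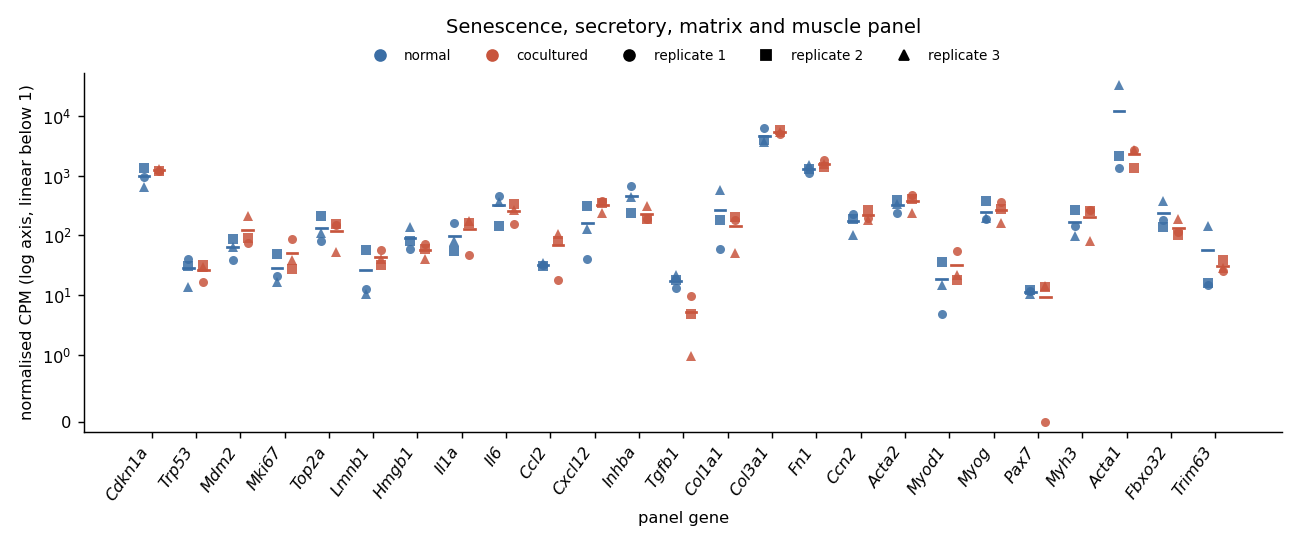
Normalised CPM (y axis, log scale above 1) of 25 panel genes of senescence, secretion, matrix and muscle (x axis) in normal (blue) and cocultured (red) libraries, 1 point a library and a bar at each group mean. Groups overlap for every panel gene but Tgfb1, and Acta1 is highest in normal 3.

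Secreted inflammatory genes were detected in both groups and none passed. Il6, a central SASP cytokine, measured 457, 145 and 356 CPM in normal and 156, 338 and 268 CPM in cocultured constructs (log2 -0.33 ± 0.44). Il1a, an upstream inducer of the SASP, measured 160.2, 55 and 81.0 against 47.8, 163 and 172 CPM. Neither gene separated the groups, and for both genes normal 1 was the highest normal library and cocultured 1 the lowest cocultured one. Ccl2, a monocyte chemoattractant, measured 32.1, 30.8 and 34.2 against 17.8, 80.5 and 107 CPM (log2 1.08 ± 0.61, and 0.61 without cocultured 3). Cxcl12, a chemokine of stromal cells, measured 40.3, 307 and 130.5 against 369, 350.2 and 240.1 CPM (log2 1.01 ± 0.59, 0.56 without normal 1 and 1.91 without normal 2). On the scale of all 9 libraries Cxcl12 stood at 784 to 1254 CPM in irradiated constructs, above every normal and cocultured library.

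Over 23 tested SASP cytokines and chemokines the median log2 fold change was 0.09, with 14 positive. The members without overlap were Gdf15, Mif and Tslp, all higher in cocultured constructs (13.0%, beside 5.97% of all tested genes). Tslp, a cytokine of epithelial and stromal cells, measured 9.63, 14.6 and 8.29 CPM in normal and 75.9, 18.5 and 24.0 CPM in cocultured constructs (log2 1.86 ± 0.79, and 0.97 without cocultured 1). Among 23 SASP growth factors 17 were positive, with a median of 0.42 that was 0.22 without normal 3. Kitl, the ligand of the receptor Kit, measured 45.5, 73.6 and 49.7 against 85.4, 128 and 94.7 CPM and was the growth factor without overlap. It was 4.35% of that list, beside 5.97% of all tested genes apart higher. Gas6, a ligand of TAM receptors, measured 0, 60.1 and 3.21 against 171, 178 and 51.2 CPM, and the placental growth factor Pgf 129, 8.87 and 46.3 against 4.19, 18.0 and 6.72 CPM. Both overlapped, through normal 2. Plau, the urokinase-type plasminogen activator, was low, at 4.42 ± 2.23 and 22.3 ± 7.35 CPM (SD, n = 3 each).

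Genes of the NF-kB pathway had a median log2 fold change of -0.35 over 26 tested members, of -0.37 without normal 3 and of 0.18 under library totals, where all genes shift to 0.50. The 3 members without overlap, Birc3, Ier3 and Nfkb1, were lower in cocultured constructs (11.5%, beside 7.68% of all tested genes). Ier3, an early response gene, measured 828, 555 and 552 CPM in normal and 361, 436 and 283 CPM in cocultured constructs (log2 -0.84 ± 0.31). Nfkb1, the p105 and p50 subunit, measured 70.8, 35.9 and 66.0 against 28.3, 11.3 and 31.2 CPM (log2 -1.29 ± 0.57). Birc3, an inhibitor of apoptosis, measured 25.1, 5.55 and 3.74 CPM in normal constructs. Its cocultured counts were all 0, which makes it at least 118-fold lower by the 3-count floor, and at least 45.0-fold lower without normal 1, which held most of its counts. Jun, a subunit of the AP-1 transcription factor, measured 327, 319.9 and 319 against 223, 226 and 163 CPM (log2 -0.66 ± 0.27). Egr1, another immediate early gene, went the other way, at 137, 189 and 152 against 284, 306 and 182 CPM. The interferon and MHC class I list (18 tested) had 1 member without overlap, B2m, the light chain of MHC class I, at 572 ± 167 and 1003 ± 129 CPM. In the complement list (19 tested) that member was the protease C1s1, at 117 ± 43.3 and 206 ± 49.7 CPM. B2m and C1s1 were 5.56% and 5.26% of their lists, beside 5.97% of all tested genes apart higher.

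Genes of TGF-beta and activin signalling lay apart about as often as all tested genes. Tgfb1, the main ligand, measured 13.0, 18.0 and 21.7 CPM in normal and 9.85, 4.84 and 0.991 CPM in cocultured constructs, lower in every cocultured library but with a wide error (log2 -1.74 ± 1.33, edgeR adjusted p = 0.999). Inhba, whose product forms activin A, measured 672, 235 and 439 against 185, 186 and 309.8 CPM (log2 -0.98 ± 0.41, edgeR adjusted p = 0.899, and log2 -0.54 without normal 1), overlapping through normal 2 and cocultured 3. Its irradiated libraries stood at 37.6 to 42.6 CPM on the scale of all 9, below both groups. The sister subunit Inhbb measured 21.9, 65.2 and 20.6 against 63.8, 96.9 and 109.9 CPM, and Fst, the secreted follistatin that binds activins, 5.01, 21.5 and 19.3 against 44.6, 52.4 and 66.6 CPM (log2 1.84 ± 0.66). Fst lay apart between the groups, while Inhbb overlapped by the margin between normal 2 and cocultured 1. The inhibitory SMAD gene Smad7, itself a target of the pathway, measured 37.7, 33.5 and 58.0 against 17.6, 8.36 and 6.28 CPM (log2 -2.00 ± 0.70). Of the 40 tested members of the list 3 lay apart higher (Bmp4, Fst and Tgfbr2, 7.5%) and 4 lower (Acvr1b, Smad7, Tgfb1 and Tgfb2, 10%), beside 5.97% and 7.68% of all tested genes, around a median of 0.05. Ccn2, the connective tissue growth factor, and smooth muscle actin Acta2, both targets with a role in fibrosis, overlapped. Ccn2 averaged 174 ± 64.3 and 216 ± 46.8 CPM, and Acta2 318 ± 73.5 and 373 ± 121 CPM.

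IGF binding proteins showed opposite values. Igfbp7, a SASP member that binds IGFs, measured 176, 51.5 and 76.2 CPM in normal and 228, 262 and 270.2 CPM in cocultured constructs (log2 1.32 ± 0.43, and 2.02 without normal 1). Igfbp2 measured 366, 326 and 287 against 182, 226 and 184 CPM (log2 -0.73 ± 0.27), again without overlap. Of 18 tested genes of the IGF axis 1 lay apart in each direction (5.56% each), beside 5.97% and 7.68% of all tested genes. Rbpj, the DNA-binding partner of Notch, measured 186, 114 and 181 against 57.3, 109 and 41.5 CPM, apart by a narrow margin between normal 2 and cocultured 2. Of 25 tested Notch and Wnt genes 2 lay apart in each direction (8% each, beside the same shares of all tested genes).

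Matrix genes were centred near no difference. Medians of the lists of interstitial collagens (18 tested), basement membrane (16), matrix glycoproteins (39), proteoglycans (20) and collagen crosslinking (27) lay between -0.01 and 0.10. Col3a1, a fibrillar collagen of loose matrix, measured 6241, 4001 and 3666 CPM in normal and 5013, 5744 and 5391 CPM in cocultured constructs, and fibronectin Fn1 averaged 1294 ± 190 and 1592 ± 209 CPM. Col1a1, the main fibrillar chain, measured 59.6, 178 and 568 against 181, 201 and 50.6 CPM, a log2 of -0.90 ± 0.74 that became 0.27 without normal 3. The fibril-associated collagen Col12a1 measured 1014, 514 and 833 against 252, 448 and 494 CPM and lay apart (log2 -0.98 ± 0.37). Col5a3 (126 ± 22 and 71.3 ± 12 CPM), the glycoprotein tenascin C, Tnc (131 ± 22 and 75.3 ± 14.6 CPM), and the laminin chain Lama4 (189 ± 16.3 and 130 ± 11.3 CPM) were likewise lower without overlap. In the other direction stood Col4a1, a basement membrane collagen (83.3 ± 18.0 and 126 ± 15.1 CPM), and Lox, which crosslinks collagen (480 ± 99.9 and 726 ± 58.2 CPM). Thbs1, an activator of latent TGF-beta, measured 288, 102 and 461 against 75.0, 132 and 56.8 CPM (log2 -1.69 ± 0.53), with an overlap through normal 2. Slit3, a secreted guidance protein, had no count in cocultured and 6.62, 14.0 and 26.7 CPM in normal constructs, which makes it at least 141-fold lower by the same floor. Of the matrix glycoproteins 5 lay apart higher (Ccn3, Ecm1, Emilin2, Fbln5 and Fbln7, 12.8%) and 4 lower (10.3%). Of the interstitial collagens 0 lay apart higher and 3 lower (16.7%). In the basement membrane list it was 2 each way (12.5% each), and in collagen crosslinking 1 each way (3.70% each). Of the proteoglycans 0 lay apart higher and 1 lower (5%). Over all tested genes these shares were 5.97% and 7.68%.

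Of 29 tested matrix proteases and inhibitors 21 were positive, with a median log2 of 0.25 that turned to -0.03 without normal 3. Adamts5, an aggrecan-degrading protease, measured 17.8, 75.9 and 16.3 CPM in normal and 111, 113 and 82.2 CPM in cocultured constructs (log2 1.48 ± 0.60, and 2.58 without normal 2). The lysosomal protease Ctsb measured 369.6, 340.5 and 239 against 519.9, 609.9 and 419 CPM, and Mmp11 48.3 ± 8.83 and 84.9 ± 19.5 CPM on average. These 3 lay apart higher (10.3%), and Mmp3 and Mmp9 apart lower (6.90%), beside 5.97% and 7.68% of all tested genes.

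Contractile genes had the lowest medians of any list with at least 10 tested members, and these rested on normal 3. Of 45 tested adult sarcomere genes 40 were negative, and their median log2 fold change of -1.90 turned to 0.52 when normal 3 was left out. For 24 genes of calcium handling and excitation the median of -1.15 turned to 0.16. Skeletal actin Acta1 measured 1344, 2129 and 32560 CPM in normal and 2718, 1326 and 2718 CPM in cocultured constructs, so that the fitted log2 of -2.41 ± 1.06 became 0.37 without normal 3. The cocultured values lay around those of normal 1 and normal 2, and normal 3 was the highest of the 6 libraries.

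The same held for the other abundant members. The troponin C gene Tnnc2 measured 1035, 1578 and 49250.2 CPM against 2046, 749 and 3037 CPM, and the fast myosin light chain Myl1 436, 719 and 18509 against 913, 202 and 1048 CPM. Atp2a1, the calcium pump of fast fibres, measured 344, 522 and 13948 against 838, 232 and 906 CPM, and muscle creatine kinase Ckm 356, 488 and 11732 against 660, 135 and 998 CPM. Without normal 3 the log2 fold changes of these genes were 0.56, 0.31, 0.60 and 0.49. The adult sarcomere share of counts was 6.95 ± 9.57% in normal and 2.51 ± 1.07% in cocultured constructs (SD, n = 3 each; exact permutation test, two-sided p = 0.9). Its difference of -4.44 percentage points became 1.08 without normal 3. Irradiated 1 held a share of 14.0%, and the other irradiated libraries 3.21% and 2.90%.

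**Figure D5:**
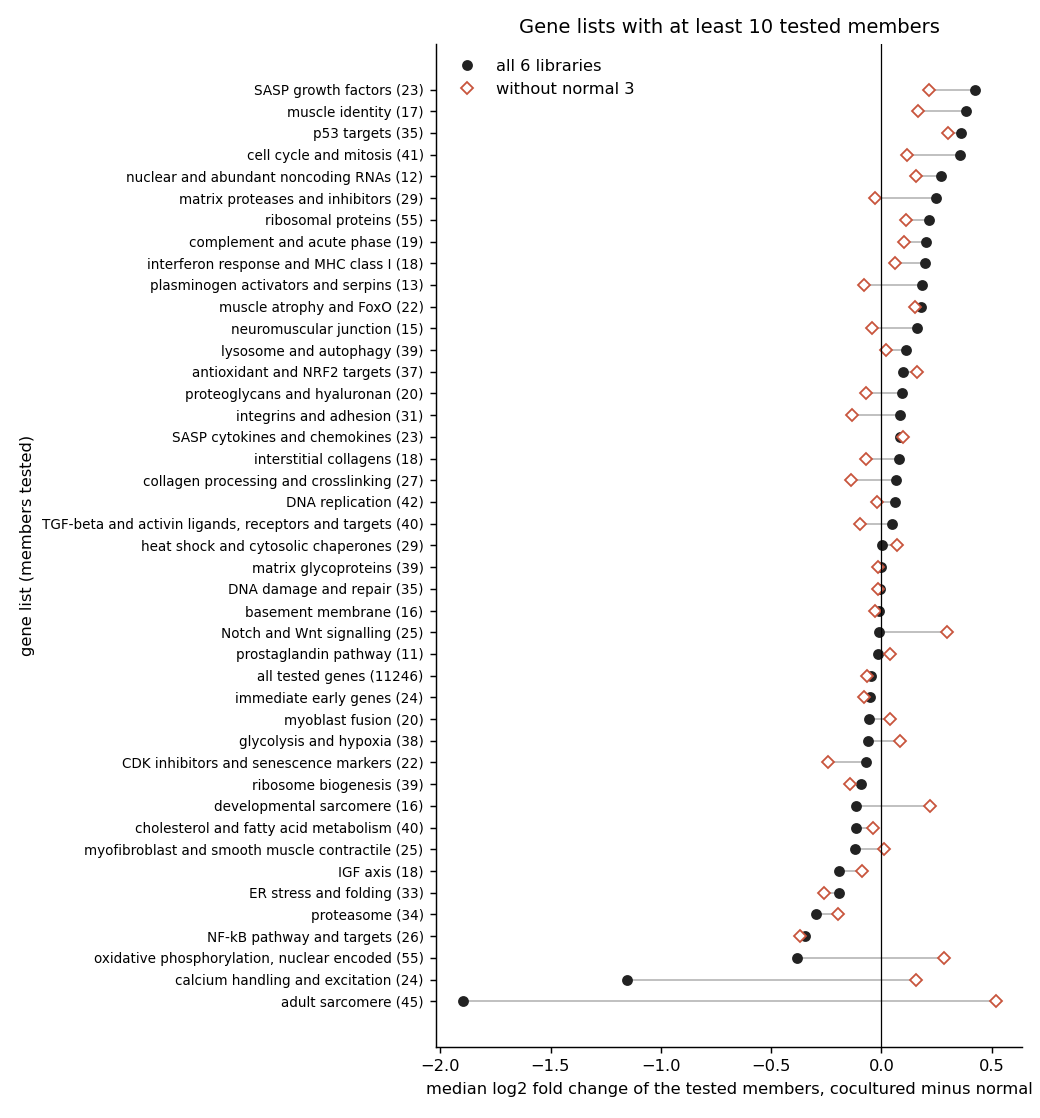
Median log2 fold change, cocultured minus normal (x axis), of the tested members of each gene list (y axis, number tested in brackets), with all 6 libraries (black) and without normal 3 (open red). The adult sarcomere median moves from -1.90 to 0.52 and the calcium handling median from -1.15 to 0.16, while most lists stay near 0.

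The muscle genes of this paragraph kept their direction without normal 3, some with smaller values. Myog and Myh3 did not, their log2 fold changes going from 0.10 to -0.06 and from 0.26 to -0.03. Cdon, a cell-surface promoter of myogenic differentiation, measured 62.6, 75.2 and 38.8 CPM in normal and 112, 112 and 124 CPM in cocultured constructs (log2 0.98 ± 0.35, and 0.74 without normal 3). Ankrd1, a stretch-responsive partner of titin, measured 350.3, 346 and 138 against 681, 566 and 429 CPM (log2 1.01 ± 0.39, and 0.67 without normal 3), without overlap. In the adult sarcomere list Ankrd1 was the 1 tested member apart higher (2.22%, beside 5.97% of all tested genes). The slow troponin C gene Tnnc1 measured 498, 506 and 417 against 281, 371 and 302 CPM (log2 -0.58 ± 0.27). Trim72, a membrane repair gene, averaged 69.7 ± 30.4 and 32.6 ± 8.79 CPM (log2 -1.09 ± 0.48, and -0.69 without normal 3). Mymk, the fusion factor myomaker, averaged 120 ± 47.3 and 191 ± 53.1 CPM with overlap (log2 0.67 ± 0.38, and 0.37 without normal 3). The myoblast factor Myod1 measured 4.81, 36.4 and 15 against 55.9, 17.7 and 21.9 CPM, and the satellite cell factor Pax7 11.6, 12.4 and 10.4 against 0, 13.9 and 14.2 CPM. Neither gave a direction larger than its error.

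Atrophy genes were mixed. The muscle ubiquitin ligases Fbxo32 and Trim63, which mark atrophy, measured 182, 137 and 381 and 14.6, 16 and 142 CPM in normal constructs. In cocultured constructs they measured 113, 99.7 and 192 and 25.0, 38.9 and 28.1 CPM. Both overlapped, and the Trim63 log2 of -0.90 ± 0.83 became 0.99 without normal 3, the library with its highest value. Of 22 tested members of the atrophy list, Capn2, Nedd4 and Zfand5 lay apart higher and the transcription factors Foxo1 and Foxo4 apart lower. These were 13.6% and 9.09% of the list, beside 5.97% and 7.68% of all tested genes. The calpain Capn2 measured 58.6, 69.4 and 37.2 against 135, 89.5 and 136 CPM (log2 1.12 ± 0.37), and the ubiquitin ligase Nedd4 averaged 565 ± 67.7 and 843 ± 170 CPM (SD, n = 3 each).

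Genes of the respiratory chain went in both directions. Of 55 nuclear-encoded members tested 38 were negative, with a median log2 of -0.38 that turned to 0.28 without normal 3. Under library totals it was 0.33, where the median of all tested genes was 0.50. The members apart higher were Atp5md, Cox7c, Ndufc2, Sdhc and Sdhd, and those apart lower Ndufa10, Ndufb8 and Ndufv1. These were 9.09% and 5.45% of the list, beside 5.97% and 7.68% of all tested genes. Cox7c, a subunit of complex IV, measured 104, 139 and 144 CPM in normal and 205, 216 and 221 CPM in cocultured constructs (log2 0.73 ± 0.27). Ndufv1, a core subunit of complex I, measured 113, 117 and 241 against 55.2, 49.7 and 105 CPM (log2 -1.17 ± 0.43, and -0.73 without normal 3). The 9 tested genes of the mitochondrial genome had a median of -0.51, and of 0.35 without normal 3. In glycolysis the muscle phosphofructokinase Pfkm measured 79.6, 64.1 and 453 against 61.7, 55.8 and 52.2 CPM, a log2 of -1.81 ± 0.67 that was -0.35 without normal 3.

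Ribosomal protein genes had the largest number of members apart in one direction of any list. Of 55 tested 14 were higher in every cocultured than in every normal library (25.5%, beside 5.97% of all tested genes) and 0 were lower. At a mean of at least 50 CPM it was 13 of 52, beside 7.28% of all genes at that level, and 0 lower, beside 6.96%. The median log2 fold change was 0.22 with 42 positive members, and 0.11 without normal 3, and 7 members had an unadjusted p under 0.05, none lower. Rpl12 measured 191, 222 and 269.8 CPM in normal and 485, 573 and 291 CPM in cocultured constructs (log2 0.98 ± 0.33). Rps23 measured 125, 126 and 71.1 against 178, 238 and 184 CPM (log2 0.90 ± 0.32), and Rpl6 92.6, 138 and 139.9 against 197, 235 and 199.6 CPM (log2 0.77 ± 0.29). For Rpl12 the highest normal and the lowest cocultured library lay close to each other, and for Rpl6 and Rps23 the gap was wider. The share of the list was 1.6 ± 0.574% of counts in normal and 2.59 ± 0.300% in cocultured constructs (SD, n = 3 each; exact permutation test, two-sided p = 0.1, the smallest possible). With mitochondrial genes and Gm26917 taken out of the totals the shares were 2.42 ± 0.794% and 3.06 ± 0.322% and overlapped (exact permutation test, two-sided p = 0.3). Genes of this family have near-identical pseudogene copies that may share reads.

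Stress and protein turnover genes gave a few separated members. Of 37 tested antioxidant genes 6 lay apart higher (16.2%) and 1, Prdx1, lower (2.7%), beside 5.97% and 7.68% of all tested genes. Gstm1, a glutathione transferase, measured 41.1, 41.7 and 77.3 CPM in normal and 133, 138 and 107 CPM in cocultured constructs (log2 1.24 ± 0.37). The metallothionein Mt2 was among the most abundant transcripts, at 3579, 6104 and 2532 against 7965, 8093 and 8402 CPM (log2 1.0 ± 0.44). Its cocultured libraries lay close together above the normal ones. The peroxiredoxin Prdx2 was also apart (111 ± 16.9 and 193 ± 34.3 CPM). Of 29 chaperone genes 4 lay apart higher (Cct2, Hspa1b, Hspa4l and Hspb1, 13.8%) and 1 lower (Hsp90ab1, 3.45%), around a median of 0.00.

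Proteasome genes had 25 of 34 members negative, with a median log2 of -0.30, and of -0.20 without normal 3. Under library totals it was 0.24, where the median of all tested genes was 0.50. Psmc1, an ATPase of the regulatory particle, measured 571, 512 and 351 CPM in normal and 236, 305 and 258 CPM in cocultured constructs (log2 -0.84 ± 0.29). Psmd14, the deubiquitinase of the same particle, went the other way, at 56.3, 47.7 and 70.1 against 91.2, 149 and 86.8 CPM (log2 0.91 ± 0.36). Among 39 lysosome and autophagy genes 3 lay apart higher and 3 lower (7.69% each, beside 5.97% and 7.68% of all tested genes). The higher ones included Ctsb and Psap, and the lower ones were Becn1, Grn and Wipi1.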

How the data were processed

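RNA of 6 constructs was measured, with libraries made from 100 ng of total RNA by a 3′ end method primed with oligo-dT and read as single-end 75 bp reads, per the labels' protocols. Each deposited file holds raw counts for 1 library by gene symbol, whole numbers without normalization, per the file headers. FastQC, STAR, HTSeq, GRCm39 and mm39 stand in the submitters' processing notes without versions or roles. The sources used here do not give annotation, strand setting or duplicate handling, and no molecular identifiers are stated. Reads of overlapping, antisense or near-identical genes may therefore be mixed, and floors cover counting error only. Samples were taken from the series' record of its files, since column numbers are 1 above the label numbers. The design text counts 2 normal samples and the labels 3, all used. Each of the files lists 40879 symbols. RefSeq names of another build served for gene classes only.

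Genes were filtered with filterByExpr, scaled by TMM and tested with edgeR 4.0.16 (glmQLFit, glmQLFTest, group as the only term, 6 libraries) in R 4.3.3, with Benjamini-Hochberg adjustment. limma 3.58.1 (voom) and DESeq2 1.42.0 were alternatives, beside other scalings, filters, a fit of all 9 libraries, the replicate number as a block and each library left out. Standard errors are the log2 fold change over the square root of F. The test was run on simulated data with known changes. At the estimated dispersion it recovered 1 of 50 2-fold, 6 of 50 4-fold, 27 of 50 8-fold and 26 of 50 16-fold changes, with 0 false calls. At a dispersion of 0.1 it recovered 12 of 50 2-fold changes and 50 of 50 at each larger fold, with 8 false calls. No library was a duplicate of another in its group (chi-square of 35.4 to 266 per gene).

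The members, the 49 gene lists (1491 entries) and the naming rule were chosen with earlier results of these data known. The rule names 10 genes per direction by p, at a mean of at least 10 CPM, without overlap and without predicted or pseudogene symbols, a panel of senescence, secretory, matrix and muscle genes, and up to 4 members of each list by p. Gm26917 and list members named only as lying apart were chosen after their values were seen. Some genes that the rule chose are not reported here.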

Additional observations from a re-analysis of the deposited data

How the results depend on the processing

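The count of called genes was 0 in edgeR and 0 under other scalings (RLE, upper quartile, library totals), at a mean of at least 50 CPM, with all 9 libraries, without mitochondrial genes and Gm26917, at an adjusted p under 0.1 and without each library in turn (range 0 to 0). It was 268 with DESeq2, 1 with limma voom, 99 without a filter on low counts and 587 with DESeq2 without normal 3, a setting added after the data were seen, and 197 genes were called by both DESeq2 fits. Of the 99, 32 were sarcomere or calcium handling genes. At an unadjusted p under 0.05 the 584 genes became 1053 with DESeq2, 1082 without the filter, 231 at 50 CPM and 1796 with DESeq2 without normal 3. Leaving out each library gave 589 to 1045, the highest without normal 3. The cause of these differences was not tested. With the replicate block 412 genes had an unadjusted p under 0.05 and 0 were called. Same-numbered libraries deviated together with correlations of -0.04, 0.04 and 0.05, so these values show no pairing by number. They cannot show whether same-numbered constructs were handled together.

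Of 117 genes named with values, 101 kept their sign under every alternative that gave them a value, among them the 19 named for the smallest p. At a mean of at least 50 CPM, 7 of the 19 had no value. Under library totals, where all genes shift up, Trp53 turned to 0.34, Top2a to 0.38, Hmgb1 to 0.0086, Il6 to 0.24, Pax7 to 0.24, Itgb1 to 0.11, Trim63 to 0.0345 and Lama4 to 0.0370, and with limma voom Trim63 turned to 0.13. With DESeq2 without normal 3, Col1a1 turned to 0.28, Myog to -0.0437, Myh3 to -0.0215, Acta1 to 0.39, Trim63 to 1.01, Ckm to 0.52, Myl1 to 0.34, Tnnc2 to 0.59 and Atp2a1 to 0.62. Over the fits that each leave out 1 library, log2 fold changes ranged from -2.90 to 0.37 for Acta1, -3.43 to 0.60 for Atp2a1, -3.40 to 0.49 for Ckm, -3.71 to 0.31 for Myl1, -3.68 to 0.56 for Tnnc2, -1.34 to 0.99 for Trim63 and -1.33 to 0.27 for Col1a1, each positive only without normal 3. They ranged from -0.67 to 0.0533 for Il6, -0.0298 to 0.77 for Myh3, -0.17 to 0.50 for Myog, -0.72 to 0.29 for Pax7, -0.41 to 0.36 for Top2a and -0.44 to 0.24 for Trp53. With 3 libraries a group, the depth and this spread limit what could be detected, and a gene that was not called is not shown to be unchanged.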

Other observations

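Of 11 tested genes of prostaglandin synthesis and response, Ptger4 and Ptges3 lay apart higher in cocultured constructs (18.2%), and Ptges, Ptges2 and Tbxas1 apart lower (27.3%), beside 5.97% and 7.68% of all tested genes. Ptgs2, the inducible cyclooxygenase, measured 1244, 266 and 430.3 CPM in normal and 109, 421 and 334 CPM in cocultured constructs, with overlap and normal 1 the highest (log2 -1.17 ± 0.62, edgeR adjusted p = 0.999, and log2 -0.24 without normal 1). Ptges, which makes prostaglandin E2, measured 6.22, 13.1 and 18.7 against 0, 3.12 and 0 CPM. Among 33 genes of folding in the endoplasmic reticulum, Asns and Dnajb11 lay apart higher and Pdia4, a disulfide isomerase, lower, at 410.1, 276 and 296 against 82.8, 228 and 232 CPM. These were 6.06% and 3.03% of the list, beside 5.97% and 7.68% of all tested genes. Of 40 genes of cholesterol and fatty acid metabolism 0 lay apart higher, beside 5.97% of all tested genes. Those apart lower (7.5%, beside 7.68%) included Fdft1 and Stard4. Stard4, a sterol carrier, averaged 20.9 ± 12.8 and 3.25 ± 2.88 CPM (SD, n = 3 each).

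Among 39 ribosome biogenesis genes Bop1, which matures the large subunit, lay apart higher (12, 9.98 and 6.95 against 28.7, 25.6 and 31.1 CPM) and Polr1c lower. Each was 2.56% of the list, beside 5.97% and 7.68% of all tested genes. Of 35 DNA repair genes 4 lay apart higher (Atr, Brca1, Prkdc and Rnf8, 11.4%) and 1 lower (Xpc, 2.86%), around a median of -0.01. Over all tested genes these shares were 5.97% and 7.68%. Atr, a kinase of the DNA damage checkpoint, measured 8.82, 7.54 and 1.34 against 10.5, 28.5 and 16.1 CPM. Itgb1, the common beta chain of matrix-binding integrins, measured 723, 585 and 671 against 521, 518 and 412 CPM, a log2 of -0.45 ± 0.27. Under library totals it was 0.11, where the median of all tested genes was 0.50. Chrnd, a subunit of the muscle acetylcholine receptor, measured 17.6, 19.5 and 12.8 against 19.7, 28.7 and 34.8 CPM. None of these genes was called by edgeR.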
